A study of Mus musculus with 217 samples.

Results

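Solute carriers are membrane proteins that move sugars, amino acids, ions, metals, vitamins and transmitters across cell and organelle membranes. The set described here is every protein-coding gene of 3 mouse striatal expression tables whose symbol, mapped from its Ensembl identifier, begins with Slc and a family number. This rule found 204 genes, of 371 such genes in the GENCODE M21 annotation and of 12270 genes listed in any of the 3 tables. The tables held 200 of them for NAc (nucleus accumbens), 200 for DMS (dorsomedial striatum) and 192 for DLS (dorsolateral striatum), and 191 were in all 3. The symbols Slc9a3r1, Slc9a3r2, Slc4a1ap and Slc7a6os follow the rule but name adaptor or neighbouring proteins and not carriers. They are kept in every count of carriers given below. The organic anion carriers with the root Slco do not follow it and are not members.

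The study collected bulk RNA from adult male and female C57BL/6J mice of about 10 weeks, with no mutation or drug treatment named in the labels. All mice had free access to food and water, with lights on for 12 h and off for 12 h each day. Tissue was taken at 1 of 6 zeitgeber times (ZT, hours from lights on), which were ZT2, ZT6 and ZT10 in the light and ZT14, ZT18 and ZT22 in the dark. Bilateral punches of 1 mm gave 77 NAc libraries (37 female, 40 male), 70 DMS libraries (34 and 36) and 70 DLS libraries (35 and 35). Each time was covered by 12 to 14 NAc libraries and by 11 or 12 in the other regions. The libraries came from 93 animals, of which 47 gave all 3 regions, so the regions are not independent samples.

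Carriers set the supply lines of brain tissue. Glucose, large neutral amino acids and lactate cross the blood-brain barrier on carriers of the endothelium, astrocytes and neurons clear glutamate and GABA by sodium-driven uptake, and vesicular carriers load transmitters into synaptic vesicles. Inside the cell, the mitochondrial carrier family exchanges metabolites across the inner membrane, and the zinc, nucleotide sugar and vitamin carriers serve organelles. Cation-chloride carriers set the chloride gradient on which GABA inhibition rests.

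The values are log2 of normalised counts, made separately for each region, so levels were compared within a region only. Whole reads could be recovered from the deposited DMS and DLS values, and library totals ranged from 35711640 to 57468484 reads in DMS and from 29719087 to 56799764 in DLS. The NAc values carry an adjustment that no label records, since a median of 2.05% of them fell on whole reads against 100% in DMS and DLS, so the NAc depth is unknown. The share of mitochondrial ribosomal RNA (mt-Rnr1 plus mt-Rnr2) in the summed counts ran from 22.7% to 50.6% in NAc and from 13.2% to 53.03% in DLS. In DMS it fell into separate ranges, with 37 libraries at 19.02% to 29.9% and 33 at 35.3% to 52.6%. The high range held 10 of 12 libraries at ZT18 but 2 of 12 at ZT22. No library of the low range came from an animal numbered 31 or higher, while the high range held animals on both sides of that number. Share and animal number thus cannot be fully told apart in DMS. The DMS fit was therefore made without and with this share as a covariate. All 9 markers of medium spiny neurons, the main striatal cell type, were listed in every region with mean log2 values of 10.75 or more. Of 7 cortical excitatory markers, 2 were listed in NAc, 1 in DMS and 2 in DLS, and of 7 choroid plexus markers 2, 2 and 1. The summed count of the 2 choroid plexus markers listed in DMS, Ttr and Clic6, differed widely between DMS libraries, from 215.6 to 73520 at ZT2, from 152.4 to 60110 at ZT10 and from 208.1 to 5717 at ZT22.

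A gene was called rhythmic when a cosine and sine of 24 h passed limma's F test at an adjusted p of less than 0.05 over the whole table. Amplitudes are log2 distances from the fitted mean to the fitted peak, given ± SE, and the fold is peak over trough. In NAc 7 of 200 carriers were rhythmic (3.5%, against 2.56% of all genes). In DMS 88 of 200 were (44%, against 51.3%), and 56 of 200 with the share as covariate (28%, against 28.6%). In DLS 54 of 192 were (28.1%, against 21%). Slc9a3r1 and Slc4a1ap, which are not carriers, are counted in the 88 and the 54, and Slc9a3r2 in the 54. At an unadjusted p of less than 0.05 the counts were 38 of 200 in NAc (15.1% of all genes) and 87 of 200 in DMS with the share (41.1%). The choroid plexus markers Ttr and Clic6 did not pass in DMS. With the log2 of their sum as a further covariate, chosen after the data were seen, 57 of 200 carriers were rhythmic in DMS with the share (28.5% of all genes), and none of the rhythmic carriers chosen by the naming rule lost its call there. The carriers' percentages were near those of all genes in NAc and in DMS with the share and higher in DLS, a difference that was not tested. The median amplitude over all carriers tested was 0.086 in NAc, 0.072 in DMS with the share and 0.073 in DLS, beside 0.075, 0.067 and 0.067 over all genes. Peaks fell on both sides of lights off: 4 in the dark and 3 in the light in NAc (1.46% and 1.1% of all genes), 29 and 27 in DMS with the share (15.4% and 13.2%), and 28 and 26 in DLS (10.9% and 10.1%). Centring every DLS library on its median moved that split to 23 and 32. Over all genes it moved the dark peaks the same way, from 1246 of 2392 rhythmic genes to 1137 of 2393.

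**Figure D1:**
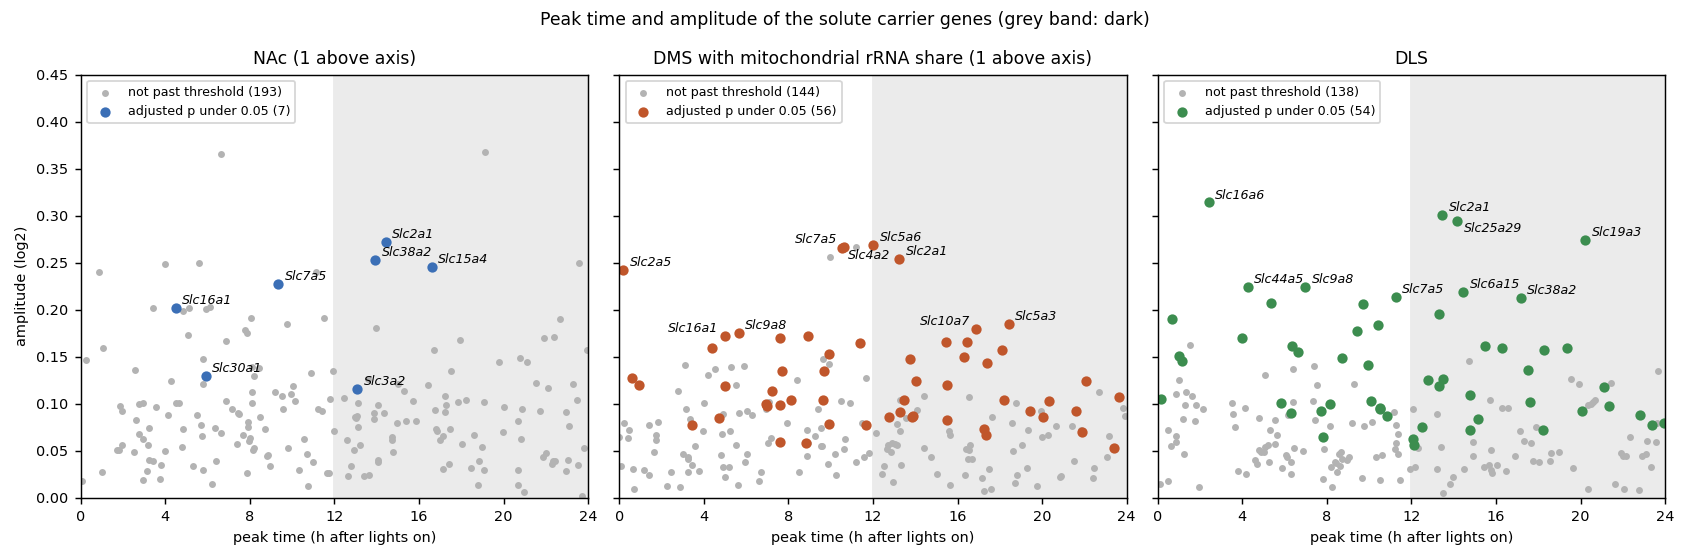
Each point is 1 solute carrier gene, placed by its fitted peak time (hours after lights on) and amplitude (log2), for NAc, DMS with the mitochondrial rRNA share as covariate, and DLS; coloured points passed an adjusted p of 0.05 (7, 56 and 54 genes), grey points did not. Coloured points lie at all times of day, and Slc2a1 and Slc7a5 are among the labelled points in all 3 panels. In NAc and in DMS 1 carrier lies above the axis.

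Of the 81 carriers rhythmic in at least 1 of NAc, DMS with the share and DLS, 7 were rhythmic in all 3, which is every carrier called in NAc. The DLS calls of Slc3a2 and Slc15a4 did not hold with the replicate number as a block (limma, adjusted p = 0.0571 and 0.0585) or with the share as covariate (0.0517 and 0.0542). Over all genes in common, 206 of 11283 (1.83%) were rhythmic in all 3 fits. The 7 are the glucose carrier Slc2a1, the amino acid carrier Slc7a5 with its heavy chain Slc3a2, the glutamine and alanine carrier Slc38a2, the lysosomal histidine and peptide carrier Slc15a4, the monocarboxylate carrier Slc16a1 and the zinc exporter Slc30a1. By fitted peak, Slc7a5 was highest late in the light, Slc2a1, Slc38a2 and Slc15a4 in the dark, and Slc3a2 near lights off. The fitted peaks of Slc16a1 and Slc30a1 were earlier in the light, but the medians of Slc30a1 were highest at ZT10 in each region. In bulk tissue a change in the number of cells of a type and a change in RNA per cell cannot be told apart.

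Slc2a1 encodes GLUT1, the glucose carrier of the blood-brain barrier endothelium and of astrocytes (chromosome 4, positions 119108711 to 119137983, plus strand, GRCm38). In NAc its log2 level had medians of 10.79, 10.76, 11.12, 11.38, 11.06 and 10.92 from ZT2 to ZT22, with libraries between 10.52 and 11.17 at ZT6 and between 10.88 and 11.70 at ZT14. In DMS the medians were 11.04, 11.18, 11.68, 11.62, 11.51 and 11.07, with libraries between 10.77 and 11.53 at ZT2 and between 11.31 and 12.24 at ZT14. In DLS they were 10.87, 11.05, 11.29, 11.56, 11.22 and 11.04, and all 12 libraries at ZT14 (11.15 to 11.84) lay above all 11 at ZT2 (10.71 to 11.07). The level was thus low early in the light and its median highest at ZT14 in NAc and DLS and at ZT10 in DMS, with overlap between the extreme times in NAc and DMS. The amplitude was 0.27 ± 0.04 in NAc, 0.25 ± 0.03 in DMS with the share and 0.30 ± 0.03 in DLS, a peak over trough of 1.46-fold, 1.42-fold and 1.52-fold. The peaks were at 14.4, 13.2 and 13.5 h (limma, adjusted p = 1.89e-06, 8.7e-10 and 6.02e-11). Within DMS the amplitude was 0.22 in the 37 libraries of low share and 0.34 in the 33 of high share, both peaking at 13.1 h.

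The stretch just upstream of the start of Slc2a1 is shown because this gene had the largest amplitude of the 7 in NAc and DLS, and the next after Slc7a5 in DMS with the share. It is the RefSeq promoter sequence (GRCm38.p6, chr4:119108495-119108710, plus strand) and holds none of the clock and stress motifs searched further down.
Slc2a1: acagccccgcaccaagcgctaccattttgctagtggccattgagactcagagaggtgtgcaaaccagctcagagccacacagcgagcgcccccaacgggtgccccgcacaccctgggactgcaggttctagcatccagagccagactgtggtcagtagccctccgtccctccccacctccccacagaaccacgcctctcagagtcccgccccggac

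Slc7a5 encodes LAT1, the exchanger that carries large neutral amino acids and the dopamine precursor across the barrier (chromosome 8, positions 121881150 to 121907694, minus strand, overlapping Gm20388 on the other strand). In NAc its medians from ZT2 to ZT22 were 9.65, 9.98, 10.07, 9.95, 9.50 and 9.53, with libraries between 9.59 and 10.32 at ZT10 and between 9.15 and 10.16 at ZT18. In DMS they were 9.81, 10.17, 10.36, 10.27, 10.03 and 9.82, with libraries between 10.10 and 10.69 at ZT10 and between 9.54 and 10.10 at ZT22, which met at their ends. In DLS they were 9.62, 9.70, 10.04, 9.94, 9.71 and 9.61, with libraries between 9.82 and 10.28 at ZT10 and between 9.32 and 9.92 at ZT22. Slc7a5 was high at ZT10 and ZT14 and low at ZT22 and ZT2 in DMS and DLS, and low at ZT18 and ZT22 in NAc. The amplitude was 0.23 ± 0.04, 0.27 ± 0.03 and 0.21 ± 0.03 in NAc, DMS with the share and DLS, with peaks at 9.34, 10.6 and 11.3 h (limma, adjusted p = 0.000874, 7.71e-09 and 1.1e-06). It was 0.24 in the low-share and 0.29 in the high-share DMS libraries.

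Slc3a2 encodes the 4F2 heavy chain, which pairs with LAT1 and other light chains to bring them to the membrane (chromosome 19, positions 8706882 to 8723369, minus strand). Its medians in NAc ran from 10.74 at ZT2 to 10.90 at ZT14, in DMS from 10.65 at ZT2 to 11.05 at ZT14, and in DLS from 10.59 at ZT2 to 10.72 at ZT10. Libraries of the extreme times overlapped in each region, for example 10.46 to 10.96 at ZT2 against 10.73 to 11.27 at ZT14 in NAc. The amplitude was 0.12 ± 0.03 in NAc, 0.08 ± 0.02 in DMS with the share and 0.07 ± 0.02 in DLS, peaking at 13.1, 11.7 and 12.5 h (limma, adjusted p = 0.0316, 0.0096 and 0.0404). Its amplitude was smaller and its peak later than those of its partner Slc7a5 in each region, differences that were not tested. The NAc call was lost when any 1 of 4 libraries was left out (females 7 and 9 at ZT2 and females 24 and 41 at ZT14), and the DLS call in 12 of 70 such fits.

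Slc38a2 encodes SNAT2, a sodium-coupled carrier of glutamine, alanine and other small neutral amino acids (chromosome 15, positions 96687392 to 96699730, minus strand). Its medians in NAc were 10.31, 10.20, 10.56, 10.61, 10.47 and 10.16 from ZT2 to ZT22. In DMS they were 10.71, 10.83, 10.76, 11.12, 11.18 and 10.73, with libraries between 10.77 and 11.34 at ZT18 and between 10.25 and 11.13 at ZT22. In DLS they were 10.61, 10.35, 10.35, 10.84, 10.81 and 10.33, with libraries between 10.02 and 10.57 at ZT10 and between 10.56 and 11.28 at ZT18. The level was highest at ZT14 and ZT18 in DMS and DLS, and already raised at ZT10 in NAc. The amplitude was 0.25 ± 0.05, 0.15 ± 0.04 and 0.21 ± 0.04, with peaks at 13.9, 16.3 and 17.2 h (limma, adjusted p = 0.00174, 0.0144 and 0.000455). Within DMS it was 0.27 in the high-share libraries (peak 18.6 h, limma adjusted p = 0.00033) and 0.15 in the low-share libraries (peak 12.2 h, adjusted p = 0.123).

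The RefSeq sequence before the start of Slc38a2 (GRCm38.p6, chr15:96699731-96699978, minus strand) is given beside that of Slc2a1 for comparison of members with a dark-phase peak; it too lacks the motifs searched.
Slc38a2: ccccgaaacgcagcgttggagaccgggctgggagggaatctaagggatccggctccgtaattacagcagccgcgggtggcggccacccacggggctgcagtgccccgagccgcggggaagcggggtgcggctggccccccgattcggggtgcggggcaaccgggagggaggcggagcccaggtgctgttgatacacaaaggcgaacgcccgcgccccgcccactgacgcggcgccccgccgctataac

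Slc15a4 encodes PHT1, which moves histidine and small peptides out of lysosomes and endosomes (chromosome 5, positions 127595664 to 127632897, minus strand). Its medians were lowest at ZT6 in NAc (8.35, libraries 7.87 to 8.79) and highest at ZT18 (8.89, 8.62 to 9.45). In DMS the medians were lowest at ZT10 (8.49, 8.20 to 8.78) and highest at ZT14 (8.92, 8.43 to 9.27), and in DLS likewise (8.10, 7.74 to 8.42, against 8.49, 8.16 to 9.01). Slc15a4 was thus higher in the dark in each region, with overlap between libraries. The amplitude was 0.25 ± 0.05, 0.16 ± 0.03 and 0.14 ± 0.04, peaking at 16.6, 18.1 and 17.5 h (limma, adjusted p = 0.00123, 0.00042 and 0.0366). In DLS the call was lost in 8 of 70 fits that left out 1 library. The gene overlaps Glt1d1 on the other strand, and whether the authors' counting used strand is not given in the sources used here.

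Slc16a1 encodes MCT1, the carrier of lactate, pyruvate and ketone bodies in endothelium and glia (chromosome 3, positions 104638668 to 104658462, plus strand). Its medians in NAc were 9.98, 10.11, 9.80, 9.61, 9.62 and 9.81 from ZT2 to ZT22. In DMS they were 10.09, 10.36, 10.35, 10.17, 10.15 and 10.12. In DLS they were 10.00, 10.24, 10.12, 9.75, 9.79 and 9.97, with libraries between 9.98 and 10.47 at ZT6 and between 9.39 and 10.13 at ZT14. The level was highest at ZT6 and lowest at ZT14 or ZT18 in NAc and DLS. The amplitude was 0.20 ± 0.05 in NAc, 0.17 ± 0.03 in DMS with the share and 0.21 ± 0.03 in DLS, with peaks at 4.5, 5 and 5.34 h (limma, adjusted p = 0.0162, 4.04e-05 and 5.12e-07). In DMS without the share its peak stood at 7.85 h. Within DMS its amplitude was 0.26 in the high-share libraries (limma, adjusted p = 9.9e-05) and 0.08 in the low-share libraries (adjusted p = 0.274).

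The RefSeq promoter of Slc16a1 (GRCm38.p6, chr3:104638414-104638663, plus strand) was the only one of the 6 matched promoters of the 7 genes with an E-box, the hexamer CACGTG bound by the CLOCK and BMAL1 pair. Capitals mark it, and its first base lies 200 bases before the annotated start. Of the other motifs searched, the REV-ERB and ROR site AGGTCA was found before a RefSeq start of Slc15a4, whose sequence is not printed.
Slc16a1: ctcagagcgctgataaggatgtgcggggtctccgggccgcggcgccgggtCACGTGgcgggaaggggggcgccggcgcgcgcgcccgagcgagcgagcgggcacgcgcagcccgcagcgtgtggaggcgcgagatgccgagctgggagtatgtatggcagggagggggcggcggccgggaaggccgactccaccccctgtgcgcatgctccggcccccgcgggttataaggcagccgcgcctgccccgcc

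Slc30a1 encodes ZNT1, which exports zinc across the plasma membrane (chromosome 1, positions 191906767 to 191913247, plus strand, overlapping 1700034H15Rik on the other strand). Its medians in NAc were 10.67, 10.83, 10.85, 10.39, 10.65 and 10.65 from ZT2 to ZT22. In DLS they were 10.61, 10.69, 10.75, 10.56, 10.56 and 10.55, and in DMS 10.82, 10.89, 11.03, 10.81, 10.88 and 10.85. In each region the median was highest at ZT10 and lower at ZT14, and libraries of the 2 times overlapped. The amplitude was 0.13 ± 0.03 in NAc, 0.08 ± 0.02 in DMS with the share and 0.09 ± 0.02 in DLS, with peaks at 5.91, 4.71 and 7.72 h (limma, adjusted p = 0.0135, 0.0103 and 0.00323). In DMS without the share the same gene did not pass (amplitude 0.06 ± 0.03, limma adjusted p = 0.125). The RefSeq promoter of Slc30a1 (GRCm38.p6, chr1:191906531-191906766, plus strand) is given beside that of Slc16a1, whose fitted peak was also early or mid-light. It holds none of the motifs.
Slc30a1: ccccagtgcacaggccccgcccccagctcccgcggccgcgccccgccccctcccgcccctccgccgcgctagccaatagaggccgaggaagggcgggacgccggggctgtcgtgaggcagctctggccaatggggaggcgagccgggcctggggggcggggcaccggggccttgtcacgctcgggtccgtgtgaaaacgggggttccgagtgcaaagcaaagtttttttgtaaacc

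**Figure D2:**
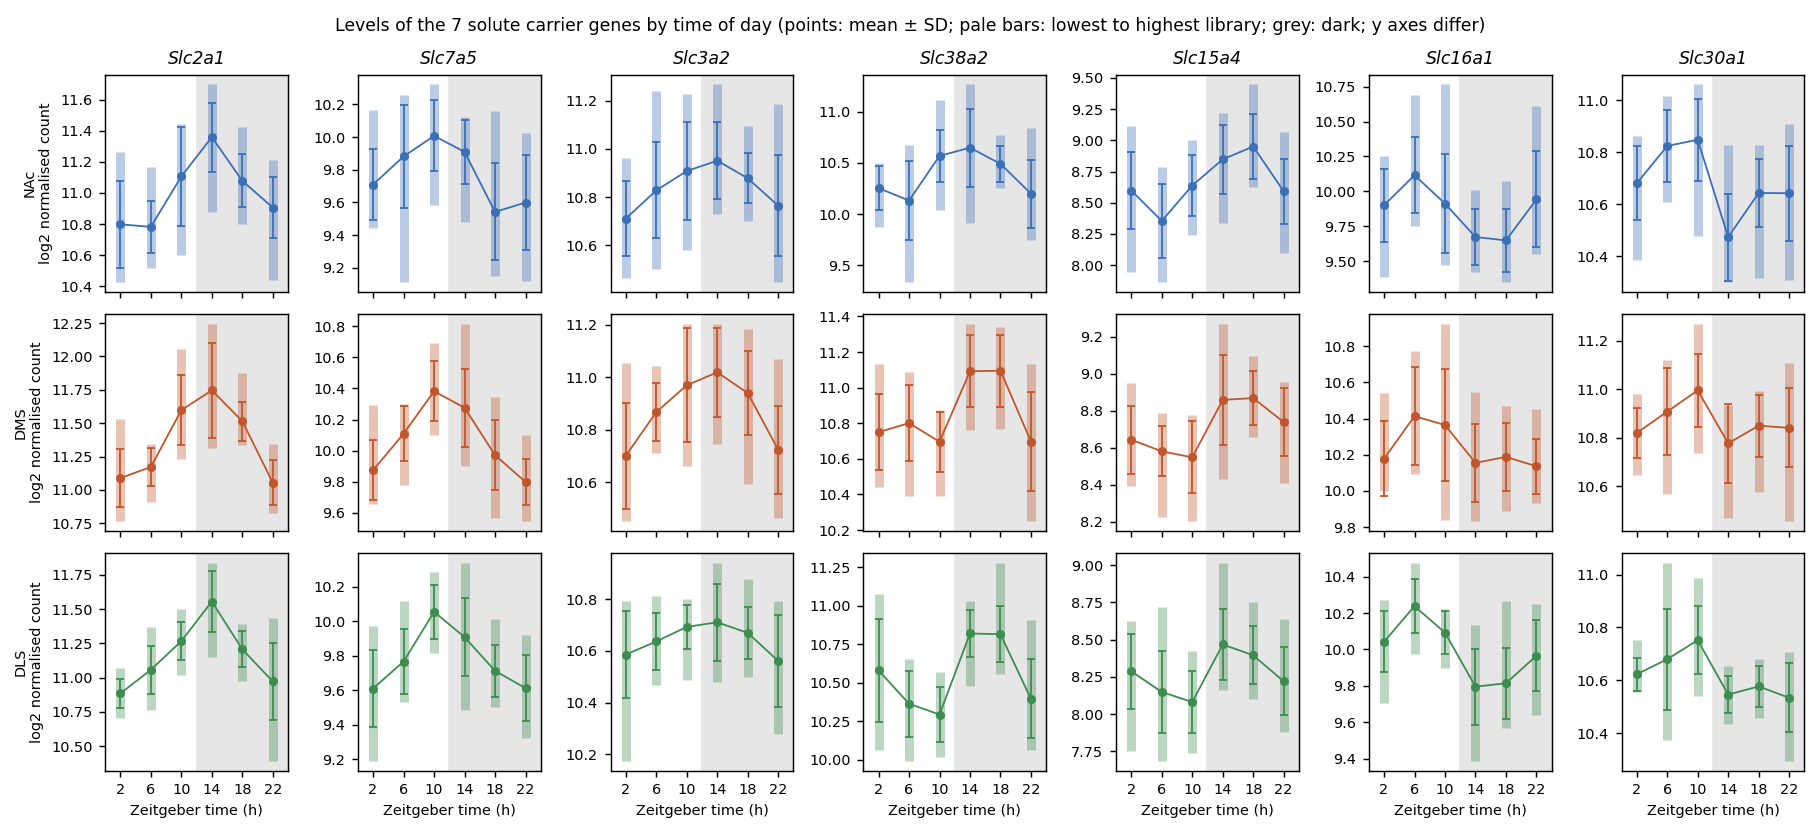
Log2 normalised count of the 7 carriers rhythmic in all 3 regions (columns) against zeitgeber time in NAc, DMS and DLS (rows), with the mean and SD over 11 to 14 libraries per time, and pale bars from the lowest to the highest library; each panel has its own vertical scale. The mean of Slc2a1 is highest at ZT14 in each region, and that of Slc16a1 at ZT6.

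Carriers of the blood-brain barrier were followed beside markers of its cells. The summed normalised count of 8 endothelial and mural markers had medians between 6181 at ZT10 and 7336 at ZT18 in NAc, between 8810 at ZT6 and 10230 at ZT18 in DMS, and between 7510 at ZT6 and 8080 at ZT18 in DLS. Of the 8, 4 were rhythmic in NAc, 4 in DMS with the share and 6 in DLS. They did not share a phase: Cldn5, a tight junction protein, had its peak at 22.4, 23.7 and 23.1 h in the 3 fits, and Ly6c1, an endothelial surface protein, at 16.6, 16.1 and 15.4 h. The part of vessel content in the rhythms of Slc2a1, Slc7a5, Slc3a2 and Slc16a1 was not tested. None of 6 astrocyte markers was rhythmic in NAc, DLS or DMS with the share (limma, adjusted p of less than 0.05). Markers of medium spiny neurons were rhythmic in 0 of 9 cases in NAc, 8 of 9 in DMS with the share and 6 of 9 in DLS, with both dark and light peaks. Those of oligodendrocytes were rhythmic in 0, 3 and 1 of 6, and those of microglia in 0, 1 and 1 of 5. The part of these cell types in the carriers' rhythms was not tested.

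Among genes that work with these carriers, Txnip and Mfsd2a were rhythmic in all 3 fits. Txnip encodes a protein that limits glucose uptake through GLUT1, and its amplitude was 0.33 in NAc, 0.25 in DMS with the share and 0.23 in DLS, with peaks at 11.2, 12.6 and 10.4 h. Mfsd2a encodes the lysophospholipid carrier of the barrier, and its amplitude was 0.33, 0.25 and 0.28 with peaks at 17.37, 16.97 and 17.63 h. Bsg encodes basigin, the partner that brings MCT1 to the membrane, and it passed in DMS with the share alone (0.09, peak 3.13 h, limma adjusted p = 0.0498). Of the list of partners and drivers, 2 of 23 were rhythmic in NAc, 7 of 23 in DMS with the share and 4 of 22 in DLS. The organic anion carrier Slco3a1 passed in DMS with the share and in DLS (0.12 and 0.17, peaks 23.1 and 22.4 h).

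Amino acid and peptide carriers include 4 of the 7 carriers rhythmic in all regions. In NAc 4 of 29 passed, in DMS with the share 16 of 29, and in DLS 10 of 28, while the whole tables gave 2.56%, 28.6% and 21%. Dark and light peaks numbered 3 and 1 in NAc, 8 and 8 in DMS with the share, and 5 and 5 in DLS. Slc6a15, a neuronal carrier of branched-chain amino acids and proline, had medians in DLS of 9.55, 9.55, 9.81, 10.01, 9.80 and 9.62 from ZT2 to ZT22, and every library at ZT14 (9.73 to 10.12) lay above every library at ZT2 (9.44 to 9.64). Its amplitude was 0.22 ± 0.02 there (peak 14.4 h, limma adjusted p = 2.23e-10) and 0.09 ± 0.02 in DMS with the share (peak 12.8 h, adjusted p = 0.0165). In NAc it was 0.09 ± 0.03 and did not pass (adjusted p = 0.251).

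Among sugar carriers, 1 of 13 passed in NAc, 5 of 13 in DMS with the share and 3 of 12 in DLS. Besides Slc2a1, the myo-inositol carrier Slc5a3 passed in both dorsal regions, with amplitudes of 0.18 ± 0.05 in DMS with the share and 0.16 ± 0.04 in DLS and peaks at 18.4 and 19.4 h (limma, adjusted p = 0.00503 and 0.0126). Its gene overlaps Mrps6 on the same strand, so reads of the pair may be split. The fructose carrier Slc2a5, in brain a gene of microglia, passed in DMS with the share alone (0.24 ± 0.07, peak 0.19 h, adjusted p = 0.0145). Slc45a1, a proton-coupled sugar carrier, passed in DMS without and with the share (0.11 ± 0.03 and 0.10 ± 0.03, adjusted p = 0.00514 and 0.0091).

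All rhythmic members of the monocarboxylate and thyroid hormone family peaked in the light: 1 of 5 in NAc, 2 of 4 in DMS with the share and 3 of 4 in DLS. Slc16a6, a carrier of ketone bodies and taurine, had the largest amplitude of all carriers tested in DLS. Its medians there were 8.13, 8.28, 8.05, 7.59, 7.85 and 8.23 from ZT2 to ZT22, with libraries between 7.70 and 8.61 at ZT2 and between 7.13 and 8.31 at ZT14. The amplitude was 0.31 ± 0.05 with a peak at 2.42 h (limma, adjusted p = 1.19e-05). In DMS it was 0.30 ± 0.06 without the share (adjusted p = 0.000441) and 0.14 ± 0.05 with it (adjusted p = 0.0989). The gene overlaps Amz2 and Arsg on the opposite strand. Slc16a14, an orphan of the family, was listed in NAc alone and did not pass (0.37 ± 0.11, adjusted p = 0.0963).

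Metal and heme carriers gave 1 of 24, 6 of 24 and 7 of 24 rhythmic members in NAc, DMS with the share and DLS. Slc30a10, an exporter of manganese, had an amplitude of 0.13 ± 0.03 in DMS with the share and 0.19 ± 0.03 in DLS, with peaks at 0.60 and 0.68 h (limma, adjusted p = 0.00383 and 7.21e-05). The zinc carriers Slc30a4 and Slc30a5 peaked in the dark: Slc30a4 at 15.5 h in DMS with the share and 16.3 h in DLS (0.08 ± 0.02 and 0.16 ± 0.03), and Slc30a5 at 17.2 and 15.1 h (0.07 ± 0.02 and 0.08 ± 0.03). The DLS call of Slc30a5 was lost in 32 of 70 fits that left out 1 library. Slc39a12, a zinc importer of astrocytes, had an amplitude of 0.24 ± 0.05 in DMS without the share and 0.05 ± 0.03 with it (adjusted p = 0.000681 and 0.404).

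Ion and acid-base carriers gave 0 of 33 in NAc (limma, 5 at an unadjusted p of less than 0.05), 9 of 33 in DMS with the share and 11 of 32 in DLS. The 11 include Slc9a3r1, Slc9a3r2 and Slc4a1ap, which follow the naming rule but are not carriers. Slc9a8, a sodium-proton exchanger of the Golgi, passed in both dorsal regions with amplitudes of 0.18 ± 0.04 and 0.22 ± 0.04 and light peaks at 5.65 and 6.97 h (limma, adjusted p = 0.0032 and 0.000326). Slc12a5 encodes KCC2, the neuronal chloride extruder. It passed in DLS (0.09 ± 0.02, peak 6.32 h, adjusted p = 0.0052) but had an amplitude of 0.01 ± 0.02 in DMS with the share and 0.07 ± 0.05 in NAc. Slc24a4, a sodium-calcium-potassium exchanger, passed in DMS with the share (0.17 ± 0.03, peak 15.5 h, adjusted p = 0.000164), and Slc4a2, an anion exchanger that overlaps Fastk, passed there too (0.27 ± 0.08, peak 10.5 h, adjusted p = 0.0274). With the choroid plexus level as a further covariate the amplitude of Slc4a2 was 0.18 (peak 9.49 h, adjusted p = 0.00209). Without that covariate the Slc4a2 call was lost in 4 of 70 fits that left out 1 library (females 18 and 40 and male 16 at ZT10, and female 49 at ZT22).

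Mitochondrial carriers gave 0 of 35 in NAc (limma, 4 at an unadjusted p of less than 0.05), 6 of 36 in DMS with the share and 9 of 34 in DLS. Slc25a44, which imports branched-chain amino acids, peaked at 13.9 h in DMS with the share and 13.5 h in DLS (amplitude 0.09 ± 0.02 and 0.13 ± 0.02, limma adjusted p = 0.00139 and 2.64e-07). Slc25a29, a carrier of basic amino acids, had medians in DLS of 6.51, 6.69, 6.98, 7.19, 6.85 and 6.84 from ZT2 to ZT22. Its amplitude was 0.29 ± 0.05 there (peak 14.2 h, adjusted p = 3.13e-05) and 0.11 ± 0.05 in DMS with the share (adjusted p = 0.16). Slc25a11, the oxoglutarate carrier, peaked at 9.9 h in DMS with the share and 10.5 h in DLS (0.08 ± 0.02 and 0.09 ± 0.02), and its gene overlaps Rnf167.

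Vitamin, choline and nucleoside carriers gave 0 of 13 in NAc (limma, 5 at an unadjusted p of less than 0.05), 4 of 14 in DMS with the share and 3 of 14 in DLS. Slc5a6, the sodium-coupled carrier of biotin and pantothenate, had the largest amplitude among the rhythmic carriers in DMS with the share. Its medians in DMS were 7.67, 7.70, 8.03, 8.06, 7.76 and 7.52 from ZT2 to ZT22, with libraries between 7.70 and 8.29 at ZT14 and between 7.10 and 7.87 at ZT22. The amplitude was 0.27 ± 0.05 in DMS with the share and 0.20 ± 0.04 in DLS, peaking at 12 and 13.3 h (limma, adjusted p = 0.000155 and 0.00161). It was 0.25 in the low-share and 0.29 in the high-share DMS libraries, but the gene overlaps Atraid. The thiamine carrier Slc19a3, listed in DLS alone, had an amplitude of 0.27 ± 0.08 and a peak at 20.2 h (adjusted p = 0.0153). Slc44a5, of the choline carrier-like family, passed in DLS (0.22 ± 0.07, peak 4.26 h, adjusted p = 0.042) and lost the call in 19 of 70 fits that left out 1 library.

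Nucleotide sugar carriers gave 0 of 23 in NAc (limma, 2 at an unadjusted p of less than 0.05), 4 of 22 in DMS with the share and 3 of 22 in DLS. Slc35b2, which brings the sulphate donor into the Golgi, passed in DMS with the share (0.14 ± 0.03, peak 7.7 h, limma adjusted p = 0.00167), and its family member Slc35f1 in DMS with the share and in DLS (0.09 ± 0.03 and 0.10 ± 0.03, peaks 21.6 and 21.3 h). Carriers of organic ions, lipids and other substrates gave 0 of 14 (limma, 1 at an unadjusted p of less than 0.05), 2 of 14 and 3 of 11. Slc27a1, a fatty acid transport protein, had amplitudes of 0.11 ± 0.02 and 0.09 ± 0.02 and peaks at 7.22 and 10.5 h in DMS with the share and DLS (adjusted p = 0.000308 and 0.0101). Slc10a7, of the bile acid carrier family, passed in DMS alone (0.18 ± 0.05 with the share, peak 16.9 h). Slc22a17, a receptor for lipocalin, passed in DLS (0.07 ± 0.02, peak 14.8 h, adjusted p = 0.00448).

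The plasma membrane carriers that clear transmitters moved little. Of 6 listed, 0 passed in NAc (limma, 2 at an unadjusted p of less than 0.05), 2 in DMS with the share and 1 in DLS. Slc1a1, the neuronal glutamate carrier EAAC1, passed in both dorsal regions, with medians in DLS of 11.51, 11.62, 11.65, 11.71, 11.67 and 11.55 from ZT2 to ZT22. Its amplitude was 0.10 ± 0.02 in DMS with the share and 0.12 ± 0.02 in DLS, peaking at 13.5 and 12.8 h (adjusted p = 0.00162 and 1.36e-06). The glial glutamate carrier Slc1a2 stayed within an amplitude of 0.04 in all 4 fits (adjusted p between 0.222 and 0.958), and Slc6a11, the glial GABA carrier, within 0.07. Slc1a3, the second glial glutamate carrier, passed in DMS without the share (0.07 ± 0.02, adjusted p = 0.0155) and did not with it (0.06 ± 0.02, adjusted p = 0.148). The dopamine carrier Slc6a3 was not among the listed genes.

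Of 5 vesicular carriers 0 passed in NAc and 0 in DMS with the share (limma, 1 at an unadjusted p of less than 0.05 in each), and 1 passed in DLS. Slc32a1, which loads GABA and glycine and is carried by striatal neurons, had medians between 12.15 and 12.51 at every time and in every region, and its amplitude was at most 0.03 (adjusted p between 0.468 and 0.813). Slc17a7, the vesicular glutamate carrier of cortical neurons, varied far more between libraries than between times, from 5.44 to 13.23 in NAc at ZT2. Its fitted amplitude of 0.86 ± 0.32 in NAc did not pass (adjusted p = 0.269). Slc17a8, a further vesicular glutamate carrier, did not pass in any of the 4 fits, and Slc18b1, a vesicular polyamine carrier, passed in DLS (0.15 ± 0.05, peak 1.13 h, adjusted p = 0.0408) but lost the call in 17 of 70 fits that left out 1 library.

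**Figure D3:**
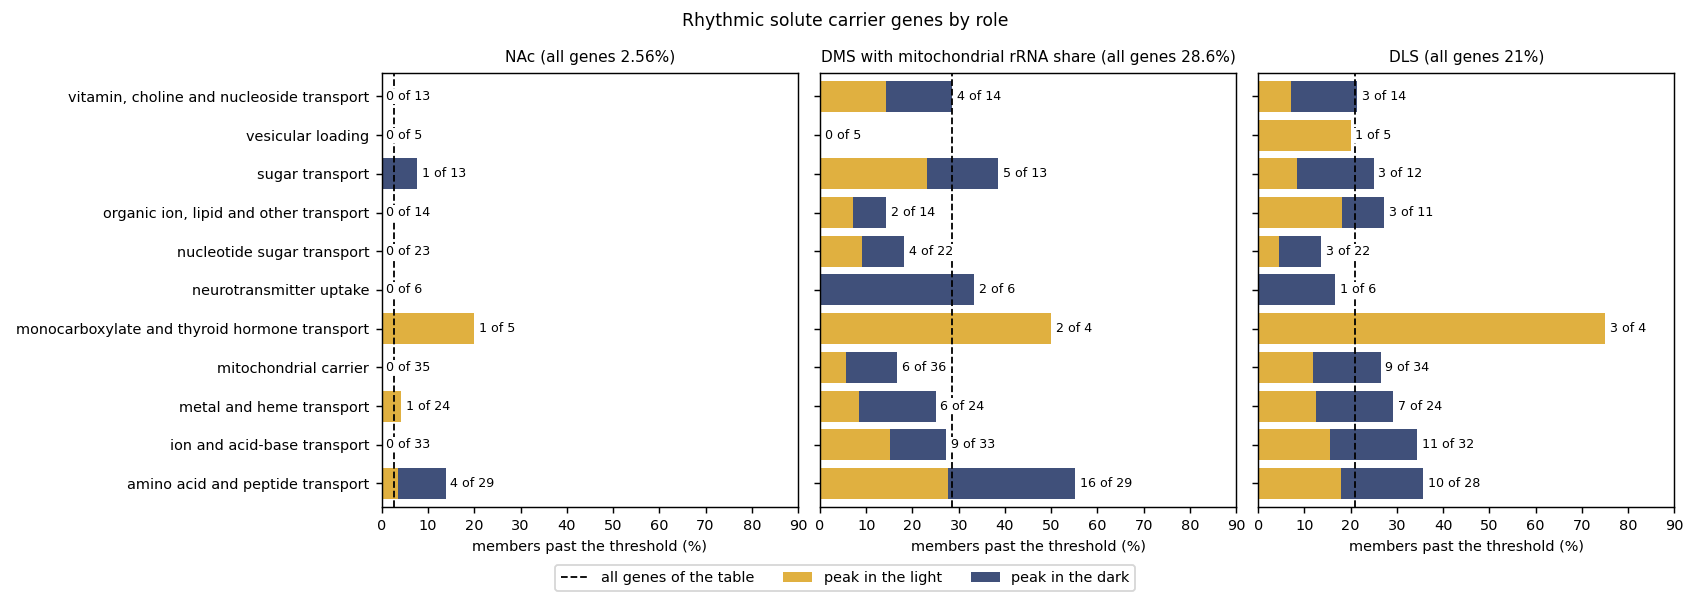
Bars give the percentage of carriers of each role that passed an adjusted p of 0.05 for a 24 h rhythm, split by whether the peak fell in the light or the dark, in NAc, DMS with the mitochondrial rRNA share and DLS; the dashed line is the percentage over all genes of the table (2.56, 28.6 and 21). Amino acid and peptide carriers exceed the line in each panel (4 of 29, 16 of 29 and 10 of 28), and monocarboxylate carriers have light-phase peaks alone.

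In DMS the list of rhythmic carriers depended on the mitochondrial rRNA share. Of the 88 called without it and the 56 called with it, 43 were shared, 45 were lost and 13 were gained, among them Slc30a1, Slc24a4, Slc2a5 and Slc4a2. Calls over all 12101 genes fell as well, from 6207 (51.3%) without the share to 3459 (28.6%) with it. Among the 43, 32 had a smaller amplitude with the share and the median shift of the peak was 1.18 h. Among the 45 lost were Slc33a1, which brings acetyl-CoA into the endoplasmic reticulum (amplitude 0.23 ± 0.05 without and 0.03 ± 0.02 with the share), and Slc35f5 (0.22 ± 0.05 and 0.10 ± 0.05). The organic ion carrier family member Slc22a15 went from 0.25 ± 0.07 to 0.08 ± 0.06, and the glucose-phosphate carrier family member Slc37a1 from 0.24 ± 0.06 to 0.13 ± 0.06. Slc44a2, of the choline carrier-like family, kept its amplitude (0.11 ± 0.02 and 0.10 ± 0.02). Slc4a8, a sodium-driven bicarbonate exchanger, was the only one whose peak moved by over 6 h, from 3.37 h (0.22 ± 0.08, limma adjusted p = 0.0447) to 11.4 h (0.16 ± 0.03, adjusted p = 2.74e-05). Its medians in DMS were 10.35, 10.43, 9.96, 9.66, 9.64 and 10.41 from ZT2 to ZT22, and libraries spanned 9.23 to 10.66 at ZT2. Per 10 percentage points of the share its log2 level fell by 0.54 ± 0.02. The share itself went with the level of 142 of 200 carriers in DMS (78.7% of all genes), 99 of 200 in NAc (63.3%) and 68 of 192 in DLS (42%). Fewer carriers passed within a range of the share: 13 of 200 over the 37 low-share libraries (7.83% of all genes) and 34 of 200 over the 33 high-share libraries (15%), in fits without the covariate.

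**Figure D4:**
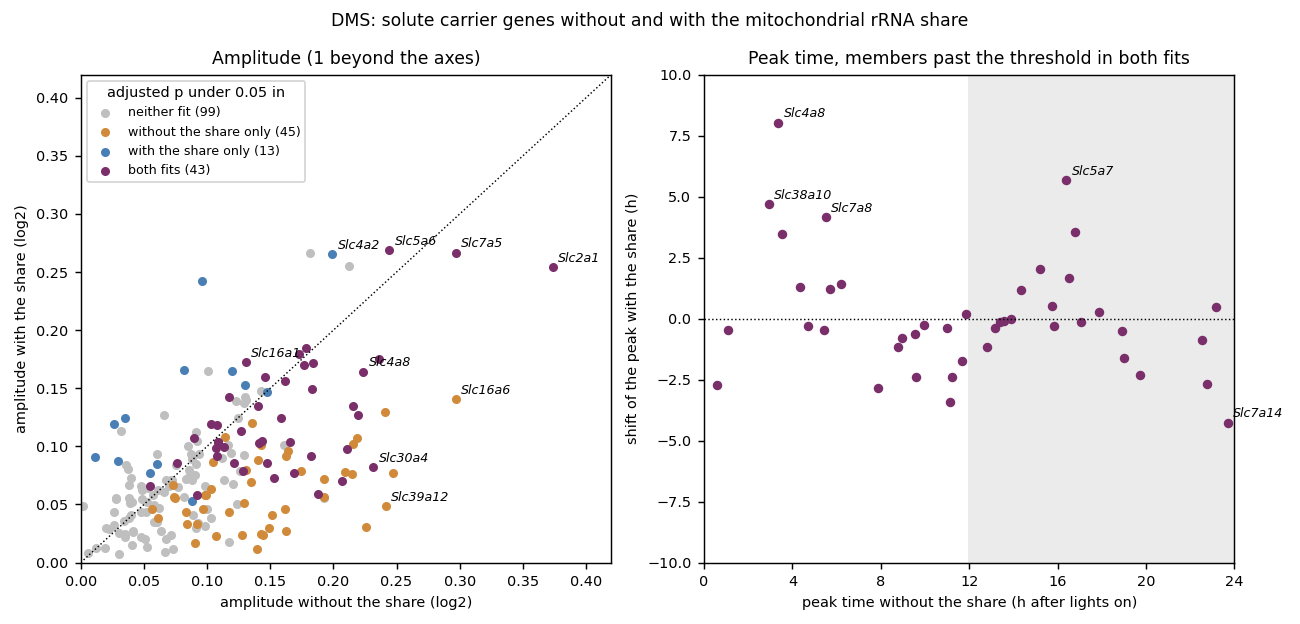
Left, amplitude (log2) of each carrier in DMS without and with the mitochondrial rRNA share as covariate, coloured by the fits in which it passed (45 without only, 13 with only, 43 both); right, the shift of the fitted peak in hours against the peak without the share, for the 43. Most points lie below the diagonal on the left, and on the right Slc4a8 moves by 8.03 h; 1 carrier lies beyond the axes on the left.

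DMS with the share and DLS had 29 rhythmic carriers in common, which is 51.8% of the DMS list and 53.7% of the DLS list. Their fitted peaks differed by a median of 0.89 h, 25 of 29 by no more than 3 h, and the largest difference was 3.55 h for the magnesium carrier Slc41a1. A further 27 were called in DMS with the share alone and 25 in DLS alone, and 123 of the 204 carriers in none of the 3 fits. No matching overlap over all genes is given here, so these counts are not shown to be particular to carriers. The test of a rhythm difference between regions called 0 of 191 carriers in each pair (limma with the animal as a block, 15, 31 and 4 at an unadjusted p of less than 0.05 for NAc with DMS, NAc with DLS, and DMS with DLS). Over all genes 0%, 0.824% and 0% were called, and 11.3%, 15.5% and 2.96% at the unadjusted p. The smallest adjusted p was that of Slc41a1 between NAc and DLS (0.0574), with a peak of 10.9 h in NAc and 17.2 h in DLS in the fit over all regions. It was chosen after its values were seen. A rhythm called in 1 region and not in another is therefore not shown to differ between them.

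The sexes were compared within each region. In level, 0 of 200 carriers differed in NAc (11 at an unadjusted p of less than 0.05, limma), 0 of 200 in DMS (30), and 0 of 192 in DLS (27), beside 0.0758%, 0.909% and 0.202% of all genes (5.27%, 10.8% and 10.2% unadjusted). With the share as covariate 15 of 200 differed in DMS (7.5%, against 8.1%), 6 higher in males and 9 higher in females. Slc2a1 was among them, with a male minus female difference of -0.13 ± 0.03 at equal share (log2 means of 11.31 in males and 11.40 in females, adjusted p = 0.0123). Chosen after their values were seen as the largest in each direction, Slc27a2, a fatty acid transport protein, had a difference of 0.25 ± 0.07 and Slc22a8, an organic anion carrier, one of -0.22 ± 0.07 (adjusted p = 0.0254 and 0.0287). The rhythm differed between the sexes for 0 carriers in NAc, in DMS with the share and in DLS (limma, 12, 19 and 21 at an unadjusted p of less than 0.05). Over all genes 0% were called in each, and 4%, 8.16% and 11.3% at the unadjusted p. Fits within each sex, on fewer libraries, called 3 of 200 carriers in females and 2 of 200 in males in NAc (0.447% and 0.261% of all genes). They called 19 and 25 of 200 in DMS (11.3% and 10.3%), and 25 and 14 of 192 in DLS (11.5% and 6.41%).

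Promoters were searched for motifs of the clock and of stress responses in the 250 bases before each RefSeq start, on both strands (GRCm38.p6); 163 of the 204 carriers were matched, 39 of them with several starts, of which any could count. The E-box CACGTG was found in 24 (14.7%) and the loose D-box pattern TTANGTAA in 5 (3.07%). The REV-ERB and ROR site AGGTCA was found in 19 (11.7%), the heat shock element GAANNTTC in 9 (5.52%) and the glucocorticoid core ACANNNTGT in 5 (3.07%). Over all 27025 genes of the promoter table the shares were 6.86%, 2.44%, 15.8%, 7.73% and 6.76%, and over the 9177 protein-coding genes with an expression value they were 10.3%, 1.61%, 12.3%, 5.9% and 4.04%. Among the 64 matched carriers rhythmic in at least 1 of the 3 fits, 11 held an E-box, against 13 of the 99 others. All 5 carriers with a match to the D-box pattern were among the 64, and 0 were among the 99. This split was seen in the data and not tested.

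The D-box is bound by DBP and related factors. TTANGTAA, in which N is any base, is a looser pattern, so a match to it is not shown to be a D-box. Base N was A in Slc25a25, Slc24a2 and Slc27a1, and G in Slc4a7 and, on the other strand, in Slc4a2. Binding at these sites was not tested. The 5 matches are printed with 10 bases on either side, in capitals where they match, because every carrier that held one was rhythmic in DMS with the share, and Slc27a1 in DLS as well. Each lies within the annotated gene, before a RefSeq start: Slc25a25 at chr2:32424081-32424108 (minus strand), Slc24a2 at chr4:87228068-87228095 (minus), Slc4a2 at chr5:24425623-24425650 (plus), Slc27a1 at chr8:71570484-71570511 (plus) and Slc4a7 at chr14:14718683-14718710 (plus).
Slc25a25: tttttttcaaTTAAGTAAaagggcagga
Slc24a2: cacatagaacTTAAGTAActtacccatg
Slc4a2: ctcttaagagTTACCTAAagccaaggtg
Slc27a1: gcggtcaatgTTAAGTAAactggttgga
Slc4a7: gcttggaagaTTAGGTAAtgtagaagac
Their peaks in DMS with the share were spread over the day: 0.91 h for the bicarbonate carrier Slc4a7, 7.22 h for Slc27a1, 10.5 h for Slc4a2, 13.7 h for the calcium exchanger Slc24a2 and 16.5 h for Slc25a25, a mitochondrial ATP and phosphate carrier. Without the share, Slc25a25, Slc24a2, Slc4a2 and Slc4a7 did not pass in DMS (limma, adjusted p = 0.0664, 0.195, 0.104 and 0.8). The fitted peak of Slc24a2 was at 1.69 h in that fit.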

How the data were processed

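Bulk RNA-seq of striatal punches was analysed from 3 tables, 1 per region. Reads of 75 bp were trimmed with Trimmomatic, checked with FastQC, aligned with HISAT2 2.1.0 and counted with HTSeq 0.10.0, per the submitters' processing notes and the series' design text. The deposited values are log2 of counts that the authors filtered and normalised with DESeq2 in each region, per the design text. The labels name a human build, GRCh38, while the design text names the mouse GRCm38. Gene symbols were matched from Ensembl identifiers through GENCODE M21 (11842 of 11867, 12073 of 12101 and 11371 of 11394 genes). Members, roles and marker lists were chosen with earlier results of these data known.

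Each gene was fitted with a 24 h cosine and sine and a term for sex (limma 3.58.1, R 4.3.3, eBayes with trend, no further filter or pseudocount). P-values were adjusted by Benjamini-Hochberg over the whole table, and SE values come from that fit. Sex differences in rhythm used an interaction, and region differences a joint fit with the animal as a block. Labels give each library's animal number, so replicates are separate animals. The scripts were tested on simulated data. Named genes were the 8 rhythmic ones of largest amplitude per fit, those rhythmic in all regions, those differing between sexes in 2 or more regions or in rhythm between sexes or regions (none passed), textbook carriers, and up to 3 of smallest p per role. Alternatives covered the share of mitochondrial rRNA, the choroid plexus level (added after seeing the data), voom on recovered reads (limma), time as 6 levels, median centring, level filters, animal numbers, the replicate block and leaving out each library. All sample columns were used. Some named genes are not reported here.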

Additional observations from a re-analysis of the deposited data

Results flagged for a closer look

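Among the 7 carriers rhythmic in all regions, 252 groups of 1 sex, time and region were screened for a library far from the others, and 21 held one. Chance alone gives about 1 in 20 groups. Values are log2 normalised counts, with the range of the other libraries of the same group.

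In NAc, Slc7a5 stood apart in 3 groups: female 31 at ZT2 (10.17, others 9.51 to 9.72), female 2 at ZT22 (9.98, others 9.12 to 9.47) and male 43 at ZT14 (9.48, others 9.86 to 10.09). Slc38a2 did so in female 37 at ZT10 (11.11, others 10.43 to 10.59) and female 6 at ZT2 (9.87, others 10.30 to 10.50). Slc16a1 was 10.25 in male 1 at ZT22 (others 9.55 to 9.83), Slc2a1 was 11.32 in male 26 at ZT18 (others 10.91 to 11.06), and Slc30a1 was 10.48 in male 40 at ZT10 (others 10.85 to 11.06).

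In DMS, Slc15a4 was low in male 1 at ZT22 (8.41, others 8.76 to 8.96) and male 15 at ZT6 (8.23, others 8.51 to 8.65). Slc30a1 stood apart in female 43 at ZT14 (10.79, others 10.90 to 10.94) and female 5 at ZT22 (11.04, others 10.83 to 10.91). Slc16a1 was 10.54 in male 31 at ZT2 (others 10.00 to 10.15). Slc2a1 was 11.31 in female 25 at ZT14 (others 11.98 to 12.25), and Slc7a5 was 9.59 in male 2 at ZT22 (others 9.83 to 9.91).

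In DLS, Slc2a1 was high in female 37 at ZT10 (11.50, others 11.27 to 11.35) and male 10 at ZT2 (11.07, others 10.81 to 10.87). Slc3a2 was low in male 16 at ZT10 (10.49, others 10.69 to 10.73) and male 6 at ZT2 (10.18, others 10.55 to 10.72). Slc16a1 was 10.16 in female 5 at ZT22 (others 9.64 to 9.83), and Slc38a2 was 11.28 in female 46 at ZT18 (others 10.81 to 10.91).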

How the results depend on the processing

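The rhythmic carriers in NAc numbered 7, beside 2.56% of all genes, and 12 with the mitochondrial rRNA share as covariate, beside 4.28%. In DMS, 88 became 13 in low-share and 34 in high-share libraries alone, and 56 with the share became 5 in low-share and 43 in high-share libraries. Over all genes 51.3% became 7.83% and 15%, and 28.6% with the share became 2.59% and 20.5%. The cause was not tested. With the choroid plexus level as a covariate the 88 became 98, while 51.3% of all genes became 54.7%. Sex differences in level rose from 0 to 3 of 200 in NAc with the share (from 0.0758% to 2.78% over all genes). They rose from 0 to 1 in DMS with the replicate block (from 0.909% to 1.67% over all genes). Slc4a8 in DMS without the share had an amplitude of 0.082 in low-share and 0.14 in high-share libraries, with its peak turned to the other side of the day. Leaving out each library gave 6 to 10 rhythmic carriers in NAc, 80 to 102 in DMS, 53 to 62 in DMS with the share and 46 to 62 in DLS. It gave 0 to 1 sex differences in DMS (1 without female 11 at ZT6, male 21 at ZT14 or male 2 at ZT22), 10 to 21 in DMS with the share, and 0 to 2 rhythm differences between NAc and DLS (above 0 when any 1 of 15 of the 93 animals was left out). The replicate block gave 8, 68, 56 and 43 rhythmic carriers in NAc, DMS, DMS with the share and DLS, beside 2.72%, 36%, 28.5% and 17.9% of all genes. It gave 11 sex differences in DMS with the share in place of 15, beside 7.25% of all genes in place of 8.1%. Same-numbered males and females had a median correlation of -0.08, 0.18, -0.04 and 0.06 in NAc, DMS, DMS with the share and DLS. In DMS without the share 16 of 25 such pairs had a correlation over 0.1, against 5 of 25 with it. The replicate block of the rhythm fits had a correlation of 0.225 in DMS without the share, 0.00538 with it, 0.148 in DLS and -0.0244 in NAc. Animal numbers are thus not shown to be free of pairing in DMS and DLS. Time as 6 levels gave 78 rhythmic carriers in DMS with the share, beside 35.7% of all genes. Voom on recovered reads gave 90, 57 and 53 in DMS, DMS with the share and DLS, beside 50.8%, 28.1% and 21.4%. A term for animal numbers of 31 and higher gave 66 rhythmic carriers in DMS and 61 in DMS with the share, beside 31.2% and 27.5% of all genes. The same term gave 7 in NAc and 55 in DLS, beside 2.48% and 22.5%. In DLS the calls of Slc3a2 and Slc15a4 were lost with the replicate block (adjusted p = 0.0571 and 0.0585) and with the share (0.0517 and 0.0542). The DMS calls of Slc4a8 and Slc25a29 without the share were lost in 33 and 40 of 70 fits that left out 1 library. The unknown NAc depth limits what can be said of that region.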
